A study of Mus musculus with 12 samples.

Results

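The 33 genes described here were chemokines and chemokine receptors, 26 secreted or membrane-bound ligands and 7 receptors, taken as a fixed list of gene symbols from the 48623 genes of the expression table. Each symbol matched 1 gene identifier. The rule selects by symbol and family, though the list was drawn up with earlier results of these data known. The cells were primary microglia, the macrophages that reside in the brain, grown from cortex and hippocampus of newborn C57BL/6J mice, either wild type (WT) or homozygous for a knock-in (KI) of the R47H variant of *Trem2*, a lipid-sensing microglial receptor linked to Alzheimer's disease risk. Each of 6 cultures (T13, T33 and T43 for WT, T15, T22 and T32 for KI) was sequenced untreated and after IL-4 (20 ng/ml for 48 h), a cytokine that drives an alternative, anti-inflammatory macrophage state, so that 12 libraries fell into 4 groups of 3. Polyadenylated RNA was sequenced, and the deposited values were TPM, transcript abundances scaled to one total per library, which correct for transcript length and can therefore be compared between genes. They keep no read counts, so the depth behind a value is unknown.

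The study describes the sequenced WT cells as coming from littermates of the KI mice. Its methods give one preparation in which WT pups of a litter were pooled and another in which pups of KI litters were cultured separately and genotyped later, and which of them each WT library came from is not given in the sources used here. Microglia were freed from the astrocyte layer of a mixed glial culture by mild trypsin. *Trem2* was at 1190 to 1890 TPM in the 6 WT libraries and at 325 to 770 TPM in the 6 KI libraries.

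One KI culture stood apart. In T15, 10 astrocyte markers summed to 4790 TPM untreated and 3660 TPM after IL-4, against 167 to 691 TPM in the other 10 libraries, and its untreated library had the lowest sum of 12 microglial markers, 10100 TPM against 17400 to 32400 TPM elsewhere. Astrocytes are themselves a source of several chemokines, so the genotype differences of *Ccl2*, *Ccl4*, *Cxcl16* and *Cxcl10* are also given without T15. None of the 8 tested astrocyte markers passed the genotype test, whereas 4 of 12 microglial markers were lower and all 3 tested mural cell markers were higher in KI (mural sums of 144 to 426 TPM in WT and 717 to 1410 TPM in KI libraries). Of 7 tested oligodendrocyte-lineage markers 1 was higher in KI, with sums of 69.5 to 151 TPM in WT and 143 to 547 TPM in KI libraries. Of the defining markers of infiltrating leukocytes, 7 of 8 for neutrophils and 5 of 8 for T cells stayed under 1 TPM in every library. The 7 markers of border-associated macrophages summed to 517 to 1090 TPM untreated and 987 to 1880 TPM with IL-4, higher with IL-4 in each culture, and 2 of the 4 tested rose, while *Lyve1* and *Cd163* stayed under 1 TPM. The 8 endothelial markers summed to 19.5 to 29.7 TPM untreated and 63.7 to 142 TPM with IL-4, and 1 of the 2 tested rose, while 4 of the 8 (*Cdh5*, *Cldn5*, *Tek* and *Emcn*) stayed under 1 TPM. The microglial sum was higher with IL-4 in each culture too (10100 to 24400 TPM untreated, 17400 to 32400 TPM with IL-4), with 1 of 12 markers past the threshold. Of 5 tested fibroblast markers 1 rose with IL-4, with WT sums of 8.71 to 27.7 TPM untreated and 29.2 to 256 TPM treated, and KI sums of 32.2 to 114 TPM untreated and 44.2 to 113 TPM treated. The part of these markers in the genotype and IL-4 results was not tested. In bulk RNA, fewer cells of a type and less RNA per cell cannot be told apart.

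Chemokines are small secreted proteins that bind G protein-coupled receptors and steer leukocytes along concentration gradients. Their families are named after the spacing of conserved cysteines (CC, CXC, CX3C), many ligands share receptors, and many genes lie in clusters that arose by duplication. In brain, microglia both make inflammatory CC ligands and carry receptors such as CX3CR1, through which neurons signal to them, and IL-4-activated macrophages elsewhere are known for a type 2 set of ligands including CCL17, CCL22 and CCL24.

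Transcripts of the listed ligands were far more abundant than those of the listed receptors. The 26 ligands summed to 1730 to 4410 TPM per library, and the 7 receptors to 29.5 to 72.5 TPM. The contrast depends on the list, since the 7 do not include the receptor gene *Cx3cr1*, which alone was at 126 to 731 TPM. *Ccl5* alone made up 16.5% to 61.2% of the ligand sum. Of the 33 genes, 7 had a mean above 100 TPM over the 12 libraries (*Ccl5*, *Ccl4*, *Cxcl16*, *Ccl3*, *Pf4*, *Ccl9* and *Cxcl14*), 17 were above 0 in every library, and 2 were listed at 0 in all of them.

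**Figure D1:**
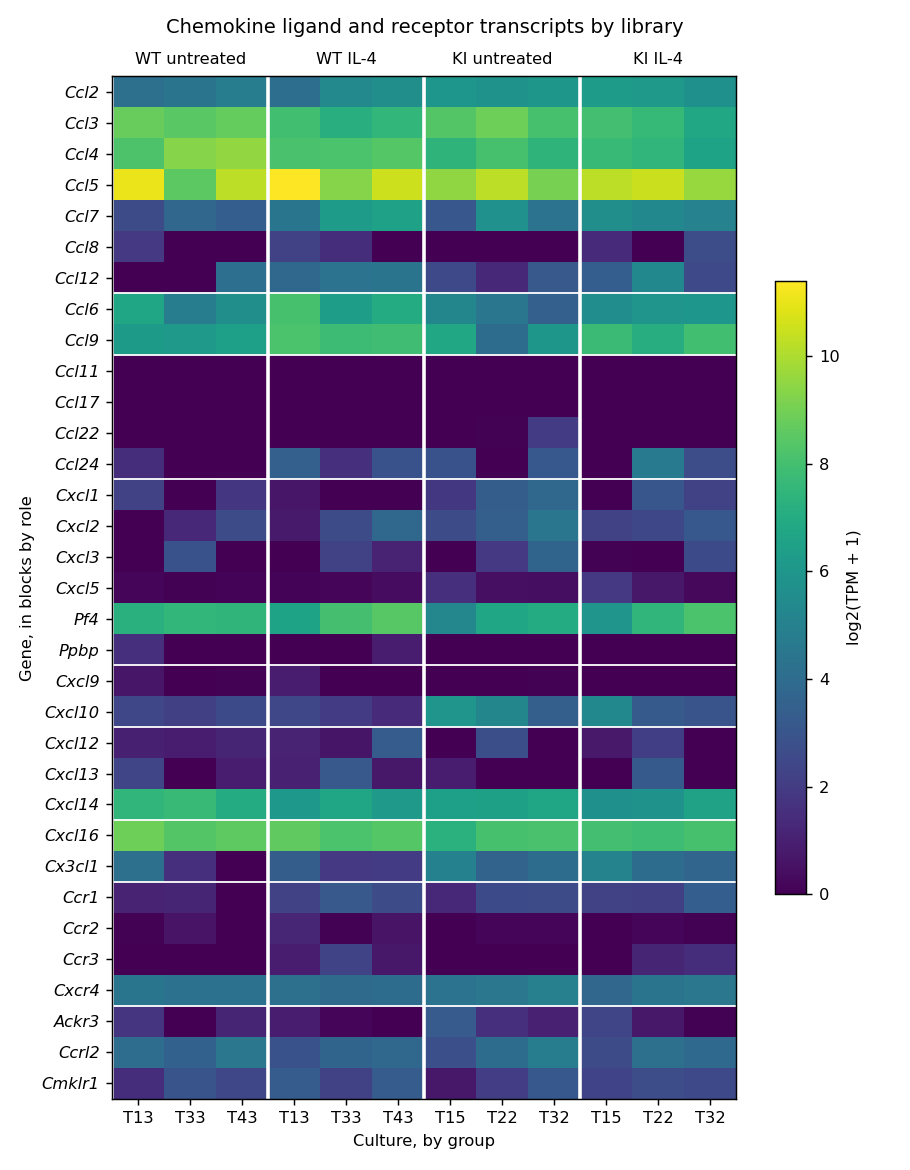
Level of the 33 genes in the 12 libraries as log2(TPM + 1), with 1 row per gene in blocks by role and 1 column per library in the 4 groups. *Ccl5* reaches the highest level, 2700 TPM, and *Ccl11* and *Ccl17* are at 0 in every column.

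Genes with a mean log2(TPM + 1) above 1.5 were tested, which kept 20 of the 33. A moderated F-test in limma took the coefficients of a factor and of the interaction together, with Benjamini-Hochberg adjustment over all 11204 genes tested and a threshold of 0.05. Differences below are in log2(TPM + 1), averaged over the other factor, and are compressed for weakly expressed genes by the added 1. Untreated and IL-4 libraries share culture identifiers in their names, so a second fit held the culture as a block (replicate block), and its value is given where it changed a call. That these identifiers mark the same culture was taken from the names.

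With IL-4, the adjacent genes *Ccl9* and *Ccl6* were higher in all 6 cultures and *Ccl3* and *Cxcl14* lower in all 6. Without the block, *Ccl9* was the 1 member of 20 past the threshold, against 0.893% of all genes tested. With culture as a replicate block 6 members passed it, *Ccl5*, *Ccl6*, *Ccl7* and *Ccl9* higher and *Ccl3* and *Cxcl14* lower, against 2.14% of all genes. The sign of the IL-4 difference was the same in all 6 cultures for 6 of 20 members, those of the blocked fit with *Cxcr4* in place of *Ccl7*, and for 8.24% of all genes.

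The promoters of the members that moved in opposite directions along chromosome 11, of *Cxcl14* and of the type 2 ligand *Ccl17*, listed at 0 throughout, are shown because IL-4 acts on transcription through STAT6. The sequences are from RefSeq on GRCm38.p6, cover 250 bases before and 50 bases after the gene start, and were found for 25 of the 33 members. Those without an entry were *Ccl2*, *Ccl4*, *Ccl5*, *Ccl7*, *Ccl11*, *Ccl24*, *Cxcl5* and *Cxcl16*. Each is written 5′ to 3′ on the strand of its gene, with capitals for matches on either strand to any of 5 motifs: the STAT motifs TTCNNNNGAA (the spacing STAT6 prefers) and TTCNNNGAA, the AP-1 motif TGANTCA, the interferon-stimulated response element GAAANNGAAA and the NF-kappaB decamer. *Ccl9* lay at chr11:83578587-83578886, *Ccl6* at chr11:83593038-83593337, *Ccl3* at chr11:83649329-83649628 and *Cxcl14* at chr13:56296502-56296801, all on the minus strand, and *Ccl17* at chr8:94810203-94810502 on the plus strand.
Ccl9: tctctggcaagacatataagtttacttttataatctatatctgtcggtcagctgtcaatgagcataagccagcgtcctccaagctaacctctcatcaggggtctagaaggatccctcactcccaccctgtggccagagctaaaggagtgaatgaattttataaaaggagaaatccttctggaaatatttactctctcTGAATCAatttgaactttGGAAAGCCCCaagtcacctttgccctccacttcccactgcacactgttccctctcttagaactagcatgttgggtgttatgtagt
Ccl6: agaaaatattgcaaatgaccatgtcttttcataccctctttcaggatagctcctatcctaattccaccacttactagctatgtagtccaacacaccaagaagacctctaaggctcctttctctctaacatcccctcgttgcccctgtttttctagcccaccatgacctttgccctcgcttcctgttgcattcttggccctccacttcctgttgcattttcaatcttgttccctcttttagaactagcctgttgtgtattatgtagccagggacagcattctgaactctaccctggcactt
Ccl3: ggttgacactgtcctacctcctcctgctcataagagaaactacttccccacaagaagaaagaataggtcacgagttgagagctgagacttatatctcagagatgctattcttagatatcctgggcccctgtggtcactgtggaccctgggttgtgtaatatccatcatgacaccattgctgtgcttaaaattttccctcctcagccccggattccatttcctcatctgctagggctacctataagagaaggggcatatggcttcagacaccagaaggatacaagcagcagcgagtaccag
Cxcl14: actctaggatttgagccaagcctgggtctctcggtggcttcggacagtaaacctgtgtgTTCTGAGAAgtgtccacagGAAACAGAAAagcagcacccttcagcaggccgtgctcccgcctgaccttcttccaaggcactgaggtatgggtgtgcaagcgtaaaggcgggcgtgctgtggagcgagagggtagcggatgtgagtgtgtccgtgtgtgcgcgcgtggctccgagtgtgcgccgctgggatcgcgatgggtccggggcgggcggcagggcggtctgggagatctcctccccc
Ccl17: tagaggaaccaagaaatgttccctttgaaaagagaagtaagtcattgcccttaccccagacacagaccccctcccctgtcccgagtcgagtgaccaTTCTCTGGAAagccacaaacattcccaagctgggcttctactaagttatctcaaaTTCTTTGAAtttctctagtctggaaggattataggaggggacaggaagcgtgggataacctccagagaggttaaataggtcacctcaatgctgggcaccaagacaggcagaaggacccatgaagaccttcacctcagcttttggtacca
The *Ccl9* promoter held 1 AP-1 match from base -53 to -47 and 1 NF-kappaB match from -35 to -26, counted from the gene start, whereas those of *Ccl6* and *Ccl3* held none of the 5 motifs. *Cxcl14* held TTCNNNGAA and the interferon element, and *Ccl17* held TTCNNNNGAA from -154 to -145 and TTCNNNGAA from -99 to -91. No 2 of these matches overlapped. Of all 32851 promoters in the table, 6.95% held TTCNNNNGAA, 8.30% TTCNNNGAA, 8.46% the NF-kappaB decamer, 7.81% TGANTCA and 3.44% GAAANNGAAA. Among the 25 members with a sequence, *Ccl17* alone held TTCNNNNGAA, and 8 held the NF-kappaB decamer, among them *Cxcl1*, *Cxcl2*, *Cxcl3* and *Cxcl10*. A match in letters does not show that a factor bound there.

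*Ccl9* and *Ccl6* encode myeloid CC ligands of rodents that attract monocytes and macrophages. Without treatment, WT cultures T13, T33 and T43 held 72.4, 68.5 and 85 TPM of *Ccl9* (chromosome 11, 83572919 to 83578636, minus strand), and with IL-4 they held 283, 226 and 237 TPM. In KI cultures T15, T22 and T32 it was at 109, 15.2 and 63.6 TPM untreated and at 217, 138 and 243 TPM after IL-4. The 6 IL-4 libraries were all above the 6 untreated ones, and the lowest value was that of untreated T22. *Ccl9* rose, with an average difference of 1.85 (standard error 0.35, adjusted p = 0.0476, limma F-test). The call was lost in 4 of 6 fits that left out a culture, with adjusted p from 0.00141 to 0.254, and held without T15 (difference 2.11, adjusted p = 0.00803). With the replicate block it was at adjusted p = 0.000875 (limma), and genotype made no difference past the threshold (-0.50, adjusted p = 0.7).

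*Ccl6* lay 9.25 kb from *Ccl9* and moved in the same direction with IL-4. In WT it went from 102, 26.6 and 49.3 TPM to 270, 83.2 and 129 TPM, and in KI from 36.7, 21 and 10.4 TPM to 47.1, 60.2 and 62 TPM, with cultures in the order above. Every culture was higher after IL-4, the smallest difference was 0.35 in T15 and the largest 2.46 in T32. The average difference of 1.44 (standard error 0.36, adjusted p = 0.244, limma) passed the threshold only with the replicate block (adjusted p = 0.00939). After IL-4 the 3 KI values lay below the 3 WT values, whereas they overlapped untreated, and the genotype difference of -1.32 did not pass (standard error 0.36, adjusted p = 0.152, limma). It was -0.85 without T13 (adjusted p = 0.39).

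*Ccl3* (MIP-1α), *Ccl4* (MIP-1β) and *Ccl5* (RANTES) are inflammatory ligands that attract monocytes and T cells. *Ccl3* was at 427, 354 and 420 TPM in untreated WT and at 243, 143 and 185 TPM after IL-4. In KI it was at 325, 478 and 267 TPM untreated and at 253, 197 and 110 TPM after IL-4. All 6 cultures were lower after IL-4, without overlap within either genotype, and the smallest difference, -0.36, was again that of T15. The average was -1.03 (standard error 0.21, adjusted p = 0.0706, limma), which passed with the replicate block (adjusted p = 0.00192) and without T15 (-1.18, adjusted p = 0.0269). WT and KI levels of *Ccl3* overlapped in both treatments (difference -0.14, adjusted p = 0.922).

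*Ccl5*, which had the highest mean of the 33 genes, varied mostly between cultures. In WT it was at 2150, 367 and 1210 TPM untreated and 2700, 639 and 1500 TPM after IL-4, and in KI at 736, 1230 and 526 TPM untreated and 1220, 1450 and 802 TPM after IL-4. The order of the 3 cultures of a genotype was the same in both treatments, and each culture was higher with IL-4, by 0.24 (T22) to 0.80 (T33). The average difference of 0.50 (standard error 0.41, adjusted p = 0.991, limma) was past the threshold only with the replicate block, which removes the differences between cultures (standard error 0.09, adjusted p = 0.0288).

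*Ccl7* (MCP-3), a ligand of CCR1, CCR2 and CCR3, was at 5.19, 12.5 and 9.59 TPM in untreated WT and at 20.6, 75.2 and 92.4 TPM after IL-4. In KI it was at 7.64, 53.9 and 19.2 TPM untreated and at 49.1, 39.6 and 32.2 TPM after IL-4. The WT groups did not overlap, the KI groups did, and T22 was the 1 culture that was lower with IL-4. The average difference was 1.71 (standard error 0.44, adjusted p = 0.182, limma), past the threshold with the replicate block (adjusted p = 0.0231). The difference was 2.48 in WT and 0.94 in KI, and the interaction of -1.54 was not past the threshold (standard error 0.88, adjusted p = 1.00, limma).

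*Cxcl14*, a CXC ligand expressed without stimulation in many tissues, was at 179, 203 and 128 TPM in untreated WT and 66.7, 108 and 71.8 TPM after IL-4, and in KI at 86.2, 88.9 and 107 TPM untreated and 52.5, 56.4 and 94.2 TPM after IL-4. IL-4 libraries were lower in each of the 6 cultures, least in T32 (-0.18), and the KI groups overlapped. The average of -0.78 (standard error 0.18, adjusted p = 0.14, limma) passed with the replicate block (adjusted p = 0.0109). Untreated KI cultures were all below untreated WT cultures, but the genotype difference of -0.56 was not past the threshold (adjusted p = 0.19).

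**Figure D2:**
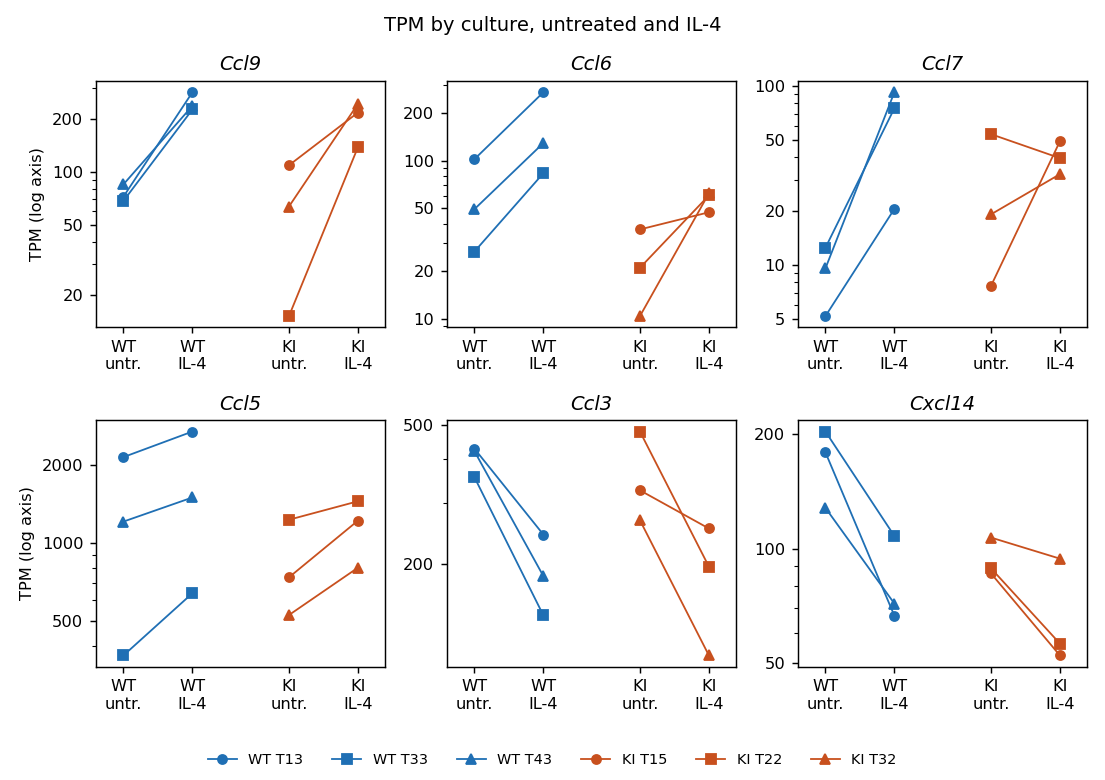
TPM on a log axis of the 6 genes past the IL-4 threshold with culture as a block, with 1 marker shape per culture within a genotype and a line joining the untreated (untr.) and IL-4 library of a culture. *Ccl9*, *Ccl6* and *Ccl5* are higher and *Ccl3* and *Cxcl14* lower with IL-4 in all 6 cultures, and *Ccl7* is higher in 5 of 6.

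The 5 CC ligand genes on chromosome 11 from 83525778 to 83664683 thus moved unequally. In order along 139 kb, the average IL-4 differences were 0.50 for *Ccl5*, 1.85 for *Ccl9*, 1.44 for *Ccl6*, -1.03 for *Ccl3* and -0.59 for *Ccl4* (the last with adjusted p = 0.709, limma, and 0.195 with the replicate block). *Ccl6* and *Ccl3*, with 54.8 kb between them, had opposite signs in each of the 6 cultures, and *Ccl4* was lower in 5 of them and higher in T15 (0.26). Since *Ccl9* and *Ccl6* resemble each other, as do *Ccl3* and *Ccl4*, the split of shared reads between such copies by the authors' quantification is uncertain.

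**Figure D3:**
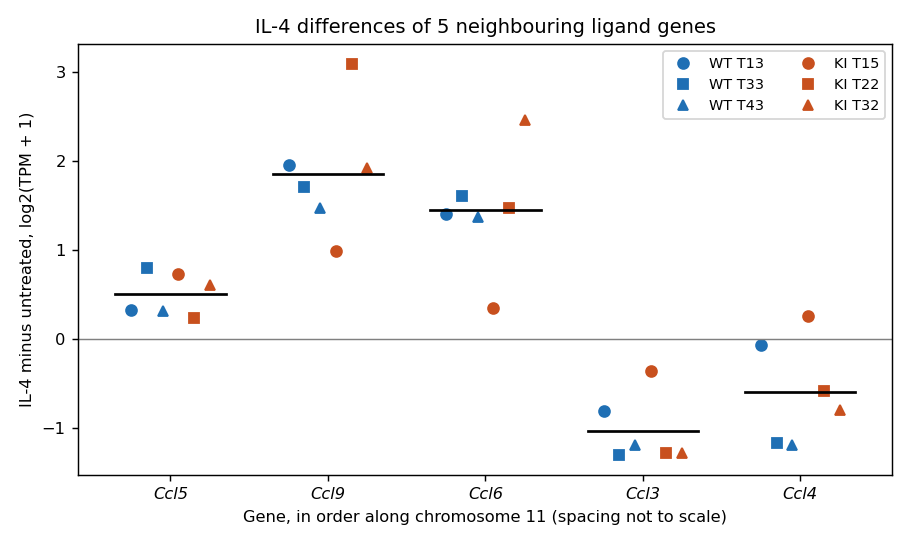
IL-4 minus untreated difference in log2(TPM + 1) for 5 neighbouring ligand genes in chromosomal order, with 1 point per culture and a black line at the mean of the 6. All points of *Ccl5*, *Ccl9* and *Ccl6* are above 0 and all points of *Ccl3* below, from -1.30 to -0.36.

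By genotype, *Ccl2* was higher and *Ccl4* lower in KI cultures. These were 2 of 20 members past the threshold, against 1.65% of all genes tested. With culture as a random replicate block neither passed, against 0.687% of all genes. For 4 of 20 members, *Ccl2*, *Ccl4*, *Cxcl10* and *Cxcl16*, the KI and WT libraries did not overlap in either treatment and lay in the same order, as they did for 4.94% of all genes. The median difference of the 20 members was 0.09, and that of all genes tested was 0.13.

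*Ccl2* (MCP-1, chromosome 11, 82035571 to 82037453, plus strand) is the main ligand of CCR2 and recruits monocytes. Its WT values for T13, T33 and T43 were 17.7, 20.1 and 26.9 TPM without and 16.6, 40.1 and 48.5 TPM with IL-4. In KI cultures T15, T22 and T32 it was at 63.5, 56.8 and 64.9 TPM untreated and at 78.7, 70 and 51.8 TPM after IL-4. Every KI library was above every WT library, by the least between IL-4-treated T32 and T43. The KI minus WT difference was 1.26 (standard error 0.24, adjusted p = 0.0369, limma F-test), and the replicate block gave adjusted p = 0.0629 (limma). Without T15 the difference was 1.18 (adjusted p = 0.125), and quantile or median-ratio scaling kept its sign but ended the call, in the latter at 1.14 (adjusted p = 0.0532). The call held in 1 of 6 fits that left out a culture, the one without T13. The 8 mural cell markers summed to 144 to 426 TPM in WT and 717 to 1410 TPM in KI libraries, without overlap. Their part in the *Ccl2* difference was not tested.

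*Ccl4* (chromosome 11, 83662584 to 83664683, plus strand) went the other way, although its neighbour *Ccl3* did not differ past the threshold. Untreated WT libraries held 296, 645 and 760 TPM and IL-4 WT libraries 281, 288 and 336 TPM, against 168, 269 and 170 TPM in untreated KI and 202, 179 and 97.6 TPM after IL-4. All 6 KI libraries lay below all 6 WT libraries. The difference was -1.19 (standard error 0.24, adjusted p = 0.0438, limma F-test), and the replicate block gave adjusted p = 0.0758. It was -1.24 without T15 (adjusted p = 0.0949), and the call held in 2 of 6 such fits, those without T13 or T22. The 12 microglial markers summed to 10100 to 24700 TPM in KI and 23600 to 32400 TPM in WT libraries, and their part in the difference was not tested.

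*Cxcl16*, a membrane-bound ligand and scavenger receptor for oxidized lipids, was at 471, 323 and 380 TPM in untreated WT and 389, 288 and 340 TPM after IL-4, and at 156, 273 and 278 TPM in untreated KI and 253, 228 and 269 TPM after IL-4. The genotypes did not overlap, but the gap was narrow (288 against 278 TPM over both treatments), and the difference of -0.60 was not past the threshold (standard error 0.16, adjusted p = 0.119, limma). Without T15 it was -0.46 (adjusted p = 0.235). It had no common direction with IL-4 (-0.04, adjusted p = 0.998). The microglial marker sums (10100 to 24700 TPM in KI and 23600 to 32400 TPM in WT libraries) apply here too. Their part in the genotype difference of *Cxcl16* was not tested.

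*Cxcl10* (IP-10), an interferon-induced ligand of CXCR3, was singled out after its values were seen. WT libraries held 4.33, 3.42 and 4.97 TPM untreated and 4.44, 3.1 and 1.63 TPM after IL-4, against 60.9, 36.4 and 9.87 TPM in untreated KI and 39.5, 8.24 and 6.69 TPM after IL-4. Every KI library was above every WT library, with T15 highest in both treatments. The difference of 2.18 (standard error 0.48) had the largest size among the 20 members but missed the threshold (adjusted p = 0.0682, limma). Without T15 it was 1.54 (adjusted p = 0.184). Its partner *Cxcl9*, next to it on chromosome 5, was under 1 TPM in all 12 libraries.

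**Figure D4:**
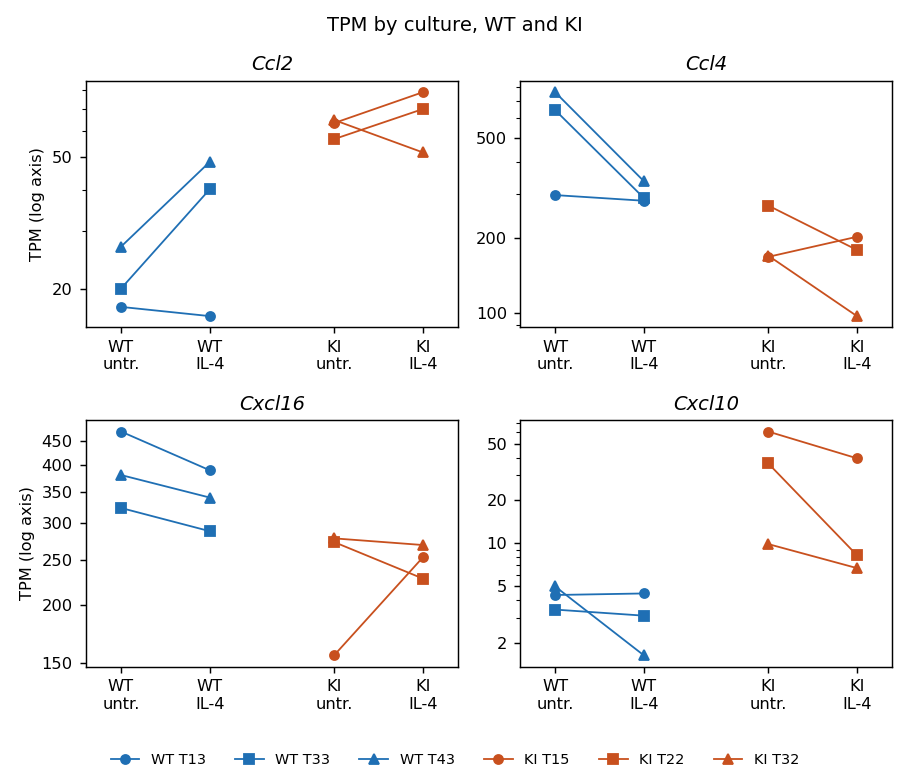
TPM on a log axis of the 4 genes whose WT and KI libraries did not overlap in either treatment, with 1 marker shape per culture within a genotype and lines joining the libraries of a culture. KI values are above WT for *Ccl2* and *Cxcl10* and below WT for *Ccl4* and *Cxcl16*, and T15 (orange circles) is the highest for *Cxcl10* and, untreated, the lowest for *Cxcl16*.

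*Pf4* (platelet factor 4), named for its release by platelets, was the fifth most abundant member. Its WT levels were 148, 187 and 176 TPM untreated and 96.2, 258 and 349 TPM after IL-4, and its KI levels 37.2, 103 and 129 TPM untreated and 60.2, 181 and 286 TPM after IL-4. It was higher with IL-4 in 5 of 6 cultures and lower in T13, and neither IL-4 (0.58, adjusted p = 0.963, limma) nor genotype (-0.79, adjusted p = 0.498) passed. The genotype difference was -0.20 without T15 (adjusted p = 0.754) and -1.20 without T32 (adjusted p = 0.249). The 6 platelet markers summed to 1.32 to 8.59 TPM untreated and 6.64 to 21.1 TPM with IL-4, higher with IL-4 in 5 of 6 cultures, and *Ppbp*, the platelet ligand gene next to *Pf4*, was at 0 in 10 libraries and at most 1.89 TPM. Their part in the level of *Pf4* was not tested.

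The neutrophil-attracting CXC ligands were low. *Cxcl1* was at 0 to 3.75 TPM in WT and 0 to 13.3 TPM in KI libraries, with no culture higher after IL-4 and 5 lower (-1.19, adjusted p = 0.907, limma). *Cxcl2* was at 0, 1.38 and 5.37 TPM in untreated WT and 0.775, 5.29 and 13.4 TPM after IL-4, but at 5.37, 10.1 and 20.9 TPM in untreated KI and 3.76, 4.58 and 7.76 TPM after IL-4. It was thus higher with IL-4 in all WT and lower in all KI cultures, a pattern seen in 1 of 20 members and 2.72% of all genes tested. The interaction test of *Cxcl2* was not past the threshold (-2.05, standard error 1.13, adjusted p = 1.00, limma). *Cxcl3* (up to 11.8 TPM) and *Cxcl5* (up to 2.67 TPM, highest in both T15 libraries) fell under the filter.

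Among the type 2 ligands of alternatively activated macrophages, *Ccl17* and *Ccl11* (eotaxin) were listed at 0 in all 12 libraries. *Ccl22*, which shares the receptor CCR4 with CCL17, was at 2.91 TPM in untreated T32, at 0.0348 TPM in untreated T22 and at 0 in the other libraries, the 6 with IL-4 among them. *Ccl24* (eotaxin-2) was scattered. WT libraries listed it at 1.85, 0 and 0 TPM untreated and 10.3, 2.01 and 6.39 TPM after IL-4, and KI libraries at 6.21, 0 and 7.73 TPM untreated and 0, 25 and 5.44 TPM after IL-4. The WT groups did not overlap, the KI groups did, and the average difference of 1.31 was not past the threshold (standard error 0.77, adjusted p = 0.901, limma).

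Of the remaining inflammatory CC ligands, *Ccl12* passed neither the genotype nor the IL-4 test, and *Ccl8* fell under the filter. *Ccl12*, a mouse ligand of CCR2, had group means of 5.62 TPM in untreated WT, 17.6 TPM in IL-4 WT, 4.8 TPM in untreated KI and 17.6 TPM in IL-4 KI, was higher with IL-4 in 5 of 6 cultures, and had an average difference of 2.10 (standard error 0.70, adjusted p = 0.526, limma). *Ccl8* stayed between 0 and 5.38 TPM and was not tested. The homeostatic ligands *Cxcl12* (0 to 9.08 TPM) and *Cxcl13* (0 to 8.39 TPM), which guide lymphocytes and progenitors, were not tested either. The highest *Cxcl12* value was in IL-4-treated T43, the library with the highest sum of fibroblast markers (256 TPM against 8.71 to 129 TPM elsewhere), and their part in it was not tested. *Cx3cl1* (fractalkine), which neurons present to microglia, was at 0 to 17.6 TPM in WT and 11.4 to 32.9 TPM in KI libraries, highest in both T15 libraries. The 8 neuron markers summed to 6.8 to 23.8 TPM in WT, highest in untreated T13 as *Cx3cl1* was, and to 16.4 to 67.4 TPM in KI, highest in both T15 libraries, while 4 of the 8 (*Rbfox3*, *Snap25*, *Syt1* and *Slc17a7*) stayed under 1 TPM throughout. Their part in the level of *Cx3cl1* was not tested. Its KI minus WT difference of 2.09 was not past the threshold (standard error 0.60, adjusted p = 0.168, limma).

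Of the 7 receptors, *Cxcr4*, the receptor of CXCL12, was the most even, at 12.6 to 30.6 TPM. With IL-4 each of the 6 cultures was lower, with differences from -0.56 (T15) to -0.12 (T22), and the average of -0.34 was not past the threshold (standard error 0.21, adjusted p = 0.952, limma). *Ccr1*, a receptor for CCL3, CCL5 and CCL7, had means of 0.816 TPM in untreated WT and 5.62 TPM in IL-4 WT, without overlap, and of 3.86 and 5.52 TPM in KI (IL-4 difference 1.16, standard error 0.42, adjusted p = 0.446, limma). *Ccr3*, the eotaxin receptor, was at 0 in all 6 untreated libraries and at 0.821, 3.98 and 0.657 TPM in IL-4 WT and 0, 1.25 and 1.82 TPM in IL-4 KI, too low for the filter. Without a filter its adjusted p was 0.862 (limma). *Ccr2*, which marks blood monocytes, was at most 1.33 TPM.

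The scavenging receptor *Ackr3* was at 0 to 8.8 TPM, highest in both T15 libraries, and was not tested. The chemerin receptors *Ccrl2* (5.15 to 27.6 TPM) and *Cmklr1* (0.651 to 9.07 TPM) passed no test, with adjusted p from 0.888 to 0.991 (limma) and no common direction over the cultures.

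**Figure D5:**
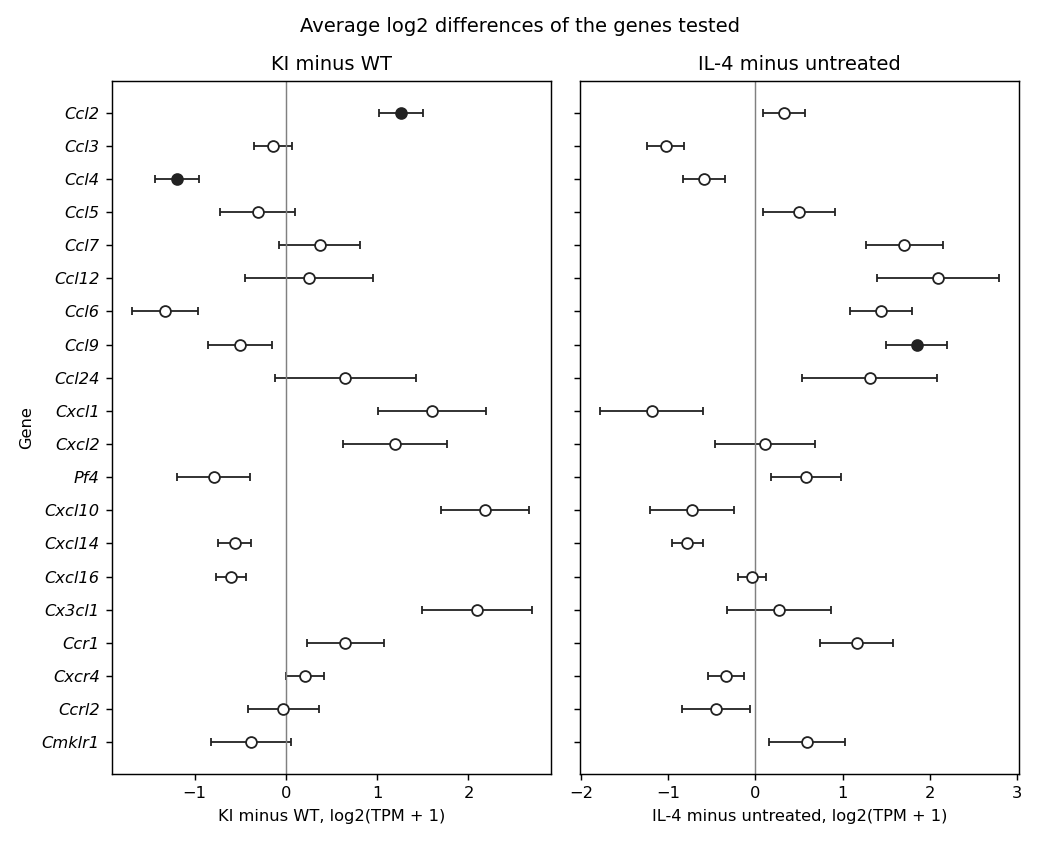
Average KI minus WT (left) and IL-4 minus untreated (right) difference in log2(TPM + 1) of the 20 genes tested, with bars of 1 standard error, without the culture block. Filled points are past the adjusted threshold of 0.05: *Ccl2* at 1.26 and *Ccl4* at -1.19 by genotype and *Ccl9* at 1.85 with IL-4.

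No member responded to IL-4 differently in the 2 genotypes past the threshold. The interaction test called 0 of 20 members and 0 of 11204 genes, 0% (limma), with and without the replicate block. At an unadjusted p under 0.05 there were 357 genes without the block, 0 of them members, and 551 genes with it, 2 of them members. These were *Cxcl2* (-2.05, standard error 0.68 with the block, unadjusted p = 0.0109, adjusted p = 0.969, limma) and *Ccl7* (-1.54, standard error 0.65, unadjusted p = 0.0358, adjusted p = 0.969). A p past the threshold in neither case does not show that the responses were equal.

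Among other genes of the chemokine system, *Cx3cr1* was past the IL-4 threshold and none was past the genotype threshold. Of 13 further ligands 3 were expressed enough to be tested, and 0 passed. Of 19 further receptors 3 were tested, and *Cx3cr1*, the fractalkine receptor and a mark of resting microglia, was lower with IL-4. It went from 731, 428 and 423 TPM to 382, 141 and 209 TPM in WT and from 300, 364 and 289 TPM to 157, 146 and 126 TPM in KI, without overlap within a genotype (-1.16, standard error 0.21, adjusted p = 0.042, limma). Of 21 tested genes that signal downstream of these receptors 0 passed, and with the replicate block 1 did, *Rgs1*, which limits G protein signalling (-0.68, adjusted p = 0.0189, limma).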

How the data were processed

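According to the study's methods and the submitters' processing notes, reads were trimmed by the authors with Trim Galore, assigned to ENSEMBL GRCm38 transcripts with Salmon and summed to genes with tximport. Versions are not given in the sources used here. The deposited values are TPM, corrected by the authors for transcript length and library size, so that they sum to 1000000 in each of the 12 libraries and hold no depth. Salmon divides reads shared by similar copies between them, and the kit is not stated to keep strand. Precision was therefore taken from the spread between cultures.

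Gene identifiers were named with a GRCm38 annotation, which matched 48419 of 48623. On the scale log2(TPM + 1), 11204 genes had a mean over 1.5 and were fitted in limma 3.58.1 (R 4.3.3, eBayes with a variance trend) with genotype, IL-4 and their interaction. The fit without the block was also run on simulated data. These had independent noise in each library and no culture effect, so they cannot show how the fit behaves with paired libraries. Summaries and plots used Python 3.11.15, numpy 2.4.6, pandas 2.3.3 and matplotlib 3.10.9. The authors' own test on counts was not repeated, since counts were not analysed here.

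Untreated and IL-4 libraries were paired by the culture identifier that their names share. Their deviations from the group means correlated at 0.0792 (T32) to 0.378 (T15), and T22 correlated more with another culture (0.188) than between its own libraries (0.121). The replicate block was random for genotype (within-culture correlation 0.198) and fixed for IL-4 and the interaction.

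The members and all lists were chosen with earlier results of these data known. Values of every library are given for members past a threshold without or with the block, for the 8 with the highest mean, and for any member under 1 TPM throughout one treatment and above 5 TPM throughout the other within a genotype, which none was. *Cxcl10*, *Cxcl2*, *Ccl24* and *Ccr3* were added after their values were seen. Alternatives were a pseudocount of 0.1, no filter, a filter at 3, quantile and median-ratio scaling, no variance trend, the block, a 1-coefficient test, single arms and leaving out each culture. No alternative was added after the data were examined. A few genes outside the 33 members are not reported here.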

Additional observations from a re-analysis of the deposited data

Results flagged for a closer look

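*Cxcl2* was higher with IL-4 in all 3 WT cultures and lower in all 3 KI cultures, which is why it is listed here. The IL-4 difference in KI minus that in WT was -2.05 in log2(TPM + 1) (standard error 1.13, adjusted p = 1.00, limma), so the difference was tested and did not pass. With the replicate block the standard error was 0.68 and the adjusted p = 0.969 (limma). The same pattern of signs was seen in 305 of 11204 genes. All values were at or below 20.9 TPM.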

How the results depend on the processing

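The interaction called 0 members under every alternative run (limma). By genotype the 2 members called became 1 with a pseudocount of 0.1 (*Ccl2*), with quantile normalization or with median-ratio scaling (*Ccl4* in both), 0 with no filter, no variance trend, the replicate block, or untreated or IL-4 libraries alone, and 4 with the 1-coefficient test (*Ccl2*, *Ccl4*, *Cxcl10* and *Cxcl16*). Leaving out a culture gave 0 to 3 by genotype, with 0 without T15, T33 or T43, 1 without T22 (*Ccl4*) or T32 (*Cxcl10*) and 3 without T13 (*Cx3cl1* added). With IL-4 the 1 member called became 0 with a pseudocount of 0.1, no filter, median-ratio scaling, no variance trend, or in WT or KI alone, 2 with the 1-coefficient test (*Ccl3* and *Ccl9*) and 6 with the replicate block. Leaving out a culture gave 0 to 2, with 0 without T13, T32, T33 or T43 and 2 without T15 (*Ccl3* added). Quantile normalization also called 1, but *Ccl3* in place of *Ccl9*. The causes were not tested, beyond smaller samples in the fits that leave out a culture. Over all genes the block moved the calls from 185 to 77 for genotype and from 100 to 240 for IL-4, and quantile normalization moved the median genotype difference from 0.13 to -0.06. Of 352 single-gene alternatives 300 kept direction and side of the threshold, 33 lost a call and 11 gained one. Without 1 culture the genotype difference ranged from -0.29 to 0.12 for *Ccl3*, from -0.94 to 0.21 for *Ccl5*, from -0.11 to 0.62 for *Ccl7* and from -0.83 to 0.02 for *Ccl9*, and the IL-4 difference from -0.18 to 0.06 for *Cxcl16*. These ranges hold 6 of the 8 changes of sign, and the others were the genotype difference of *Ccl7* after IL-4 alone (-0.40) and the IL-4 difference of *Cxcl16* in KI alone (0.13); none was past the threshold. TPM holds no depth, so low values such as those of *Ccr3* or *Ccl24* have no counting interval.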
